A study of Monodelphis domestica and Mus musculus with 26 samples.

Results

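Peritubular and stromal cells of the adult testis were examined in single-cell RNA sequencing of whole dissociated testes from 3 mouse and 3 gray short-tailed opossum libraries. Barcodes taken for them by the rule below, called members, numbered 4247 of the 47192 kept cell barcodes, 771 in mouse and 3476 in opossum. A barcode was kept with at least 1000 counts and 500 genes. A kept barcode was a member when its summed count of ACTA2, MYH11, MYL9, DCN, COL1A1, COL1A2, COL3A1, PDGFRA and LUM was 3.5 or more, its CYP17A1 and CYP11A1 together (Leydig cell enzymes) were below 1.5, and its PECAM1 and CDH5 together (endothelial junction proteins) were below 0.5. Members with more counts of ACTA2, MYH11 and MYL9 than of the 6 other marker genes were called muscle-like (2150 barcodes), the rest fibroblast-like (2097 barcodes). Members were thus chosen by their measured counts of these genes, so levels of these genes, members against other barcodes and muscle-like against fibroblast-like are given below as descriptions without a test. In 846 muscle-like members, 809 of them in opossum, ACTA2, MYH11 and MYL9 were below 0.3% of counts. What cells these are was not tested, and results on all members include them.

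The mice were adult males of strain C57BL6/J, aged 8 to 16 weeks per the labels' protocols, and the opossums were labelled adult. No animal carried a named allele or had a treatment, and no cells were sorted. The tunica albuginea, the capsule around the testis, was removed, and collagenase and trypsin then freed the cells. Bulk RNA sequencing of opossum testis at 1, 2, 3 and 4 months and in adults adds an age series. The labels do not say that the libraries of a group came from different animals, so the p-values measure the spread between these libraries. Single-cell library 3 of each species has a title of another form and a sample number far from those of libraries 1 and 2. No fit used this grouping.

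Around each seminiferous tubule lies a wall of flattened peritubular myoid cells, which hold smooth muscle actin and myosin, contract to move sperm along the tubule, and lay down the basement membrane together with the Sertoli cells inside. Between the tubules lie stromal fibroblasts, which make interstitial collagens and proteoglycans such as decorin, together with Leydig cells, macrophages and vessels. Vessels bring pericytes and vascular smooth muscle cells, which share most contractile genes with myoid cells. Peritubular cells respond to androgen and to the hedgehog ligand of Sertoli cells and secrete growth factors, GDNF and CSF1 among them, that act on spermatogonial stem cells.

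The opossum annotation limits what could be read. It names 11523 of its 32251 features, against 32532 features in mouse, nearly all with names. Of the 9 marker genes, opossum names MYH11, DCN, COL1A1, COL3A1 and LUM, so that its muscle-like members rest on MYH11 alone, and of the 4 exclusion genes it names CYP11A1 and CDH5. Median counts of kept barcodes were 2768 to 4497 in mouse and 1627 to 2335 in opossum, and of members 1450 to 2159 and 1477 to 4112. PRM1, a protamine of spermatids, had a count in 100.0, 98.2 and 13.2% of members of the 3 mouse libraries and in 38.2, 73.3 and 87.2% of the opossum libraries, against 98.8, 93.6 and 52.4% and 73.8, 71.3 and 61.6% of the other kept barcodes. Mouse libraries 1 and 2 shared 76 kept barcodes and the other pairs 0 to 24, and no pair shared more than 1 member barcode.

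Members were a larger share of the opossum libraries. They made up 2.86, 3.48 and 2.80% of kept barcodes in mouse (3.05 ± 0.379%, SD, n = 3) and 17.9, 12.5 and 18.2% in opossum (16.2 ± 3.20%). The species did not overlap, and the 2-sided exact permutation test gave p = 0.1, the smallest value that 3 against 3 libraries allow. With each barcode thinned to 1000 counts the mean shares were 2.78% in mouse and 8.49% in opossum, and with only the marker genes that both species name they were 2.58% and 16.2%. A share of barcodes depends on how many cells of each kind the digestion released, which was not tested.

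Fibroblast-like members were 1.92, 3.18 and 0.655% of kept barcodes in mouse and 7.66, 6.12 and 8.77% in opossum. Muscle-like members made up 33.0, 8.79 and 76.6% of all members in mouse (39.5 ± 34.4%) and 57.1, 51.1 and 51.8% in opossum (53.3 ± 3.31%). The mouse libraries thus spanned the opossum range, and the exact permutation test gave p = 0.7. Mouse library 2 held only 24 muscle-like members and mouse library 3 only 62 fibroblast-like members. The difference of 13.8 percentage points in the muscle-like share turned to -1.50 without mouse library 2. With only the marker genes that both species name, the muscle-like share was 18.1% in mouse and 53.3% in opossum, a difference of 35.2 percentage points without overlap (exact permutation p = 0.1, the smallest possible). These tests too only describe shares that the rule's own counts set.

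**Figure D1:**
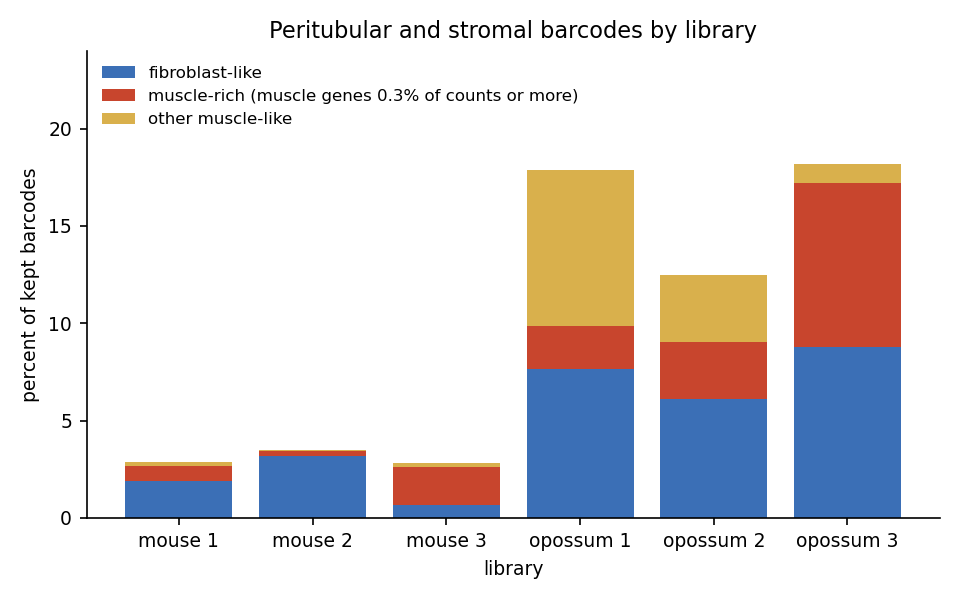
Percent of kept barcodes in each of the 3 mouse and 3 opossum libraries that were fibroblast-like, muscle-rich (muscle-like with ACTA2, MYH11 and MYL9, in opossum MYH11 alone, at 0.3% or more of counts) or other muscle-like members, as stacked bars from 0. Whole bars reach 2.80 to 3.48% in mouse and 12.5 to 18.2% in opossum, and other muscle-like members reach 8.04% in opossum library 1.

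The marker genes that chose the members lay as follows. ACTA2, the smooth muscle actin, stood at 9349, 8404 and 11918 CPM (counts relative to the total of the summed barcodes) in the muscle-like mouse members with the highest muscle content, defined below, and at 4.96, 56.9 and 15.2 CPM in fibroblast-like ones. MYH11, the smooth muscle myosin heavy chain, stood at 1145, 994 and 1971 CPM and 0, 2.36 and 10.5 CPM in the same mouse groups, and at 12975, 11389 and 7935 CPM and 218, 215 and 159 CPM in the opossum ones. This separation is set by the rule, in opossum by MYH11 alone. DCN, the collagen-binding proteoglycan decorin, was at 9238, 9755 and 3616 CPM in fibroblast-like mouse members and 1842, 2230.5 and 2242 CPM in opossum ones. It was not absent from the muscle-rich cells, where it stood at 734, 862 and 465 CPM in mouse and 642, 649 and 387 CPM in opossum. COL1A1, a chain of collagen I, did not separate the kinds in mouse, with 249.98, 159 and 312 CPM in fibroblast-like and 291, 120.4 and 548 CPM in muscle-rich members, while in opossum the values were 939.9, 1084 and 707 CPM and 528, 469 and 202 CPM.

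The threshold sat in a denser range of summed marker counts in opossum than in mouse. The median summed marker count of members was 23.96, 16.96 and 34.9 in the mouse libraries and 8.96, 7.98 and 7.84 in the opossum libraries. Members just inside, from 3.5 to 5, numbered 23, 25 and 19 in mouse and 278, 282 and 396 in opossum, and barcodes just outside, from 2.5 to 3.5, numbered 27, 17 and 11 in mouse and 220, 248 and 270 in opossum. The Leydig and endothelial genes removed 21 to 36 barcodes per library.

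Not all muscle-like members looked like muscle. Those with ACTA2, MYH11 and MYL9 at 0.3% or more of their counts, called muscle-rich here, numbered 62, 20 and 185 in mouse and 121, 238 and 678 in opossum. The other muscle-like members were 19.5, 16.7 and 8.87% of the muscle-like ones in mouse and 78.7, 54.1 and 10.6% in opossum. In the opossum, TAGLN, the actin-binding protein transgelin of smooth muscle, was at 12.01, 85.0 and 1431 CPM in these other members of libraries 1, 2 and 3, and at 2682, 2659 and 2303 CPM in the muscle-rich ones. The list of contractile genes, leaving out those of the rule, took 0.0752, 0.163 and 0.573% of their counts, against 1.87, 1.57 and 1.06% in muscle-rich members. The limit of 0.3% was chosen after these values were seen. It was met by MYH11 alone in opossum and by ACTA2, MYH11 and MYL9 together in mouse, so the muscle-rich groups were cut unequally. MYH11 itself was at 1145, 994 and 1971 CPM in mouse muscle-rich sums and at 12975, 11389 and 7935 CPM in opossum ones. A muscle-rich limit on MYH11 alone in both species was not tried.

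The other muscle-like members carried genes of Sertoli cells, the somatic cells inside the tubule. FSHR, the receptor for follicle-stimulating hormone, stood at 84.3, 291 and 66.8 CPM in them in opossum and at 7.11, 7.86 and 9.97 CPM in muscle-rich members. WT1, a factor that Sertoli cells need, stood at 292, 411 and 137 CPM against 19.1, 35.3 and 56.1 CPM. INHA, the inhibin alpha subunit, stood at 1032, 357 and 247 CPM against 11.5, 0 and 35.6 CPM in mouse and at 46.4, 62.8 and 0 CPM against 2.40, 1.71 and 0.525 CPM in opossum. Opossum library 3 stood apart, with SOX9 and INHA at 0 in its other muscle-like members and TAGLN near the muscle-rich level. The whole list of 14 Sertoli markers named in mouse took 2.78, 0.515 and 0.802% of counts in these members, 0.0432, 0.079 and 0.0855% in muscle-rich and 0.0669, 0.0416 and 0.0256% in fibroblast-like ones, with AMH at 0 throughout. The 4 markers named in opossum took 0.048, 0.0821 and 0.0204%, against 0.00361, 0.00465 and 0.00677% in muscle-rich members. MYH11 also had a count in 28.5, 15.1 and 5.89% of opossum barcodes that are no members, against 0.633, 0.86 and 0.141% in mouse. Of the mouse barcodes in question, 40.0, 25 and 38.9% were among the 8% with the highest doublet scores of their library, and of the opossum ones 4.24, 13.9 and 16.3%. Whether they are doublets, Sertoli cells with a few muscle reads or true muscle cells was not tested. Results on muscle-like cells are therefore given for the muscle-rich members, and in the species comparisons each list also has its count for all muscle-like members.

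**Figure D2:**
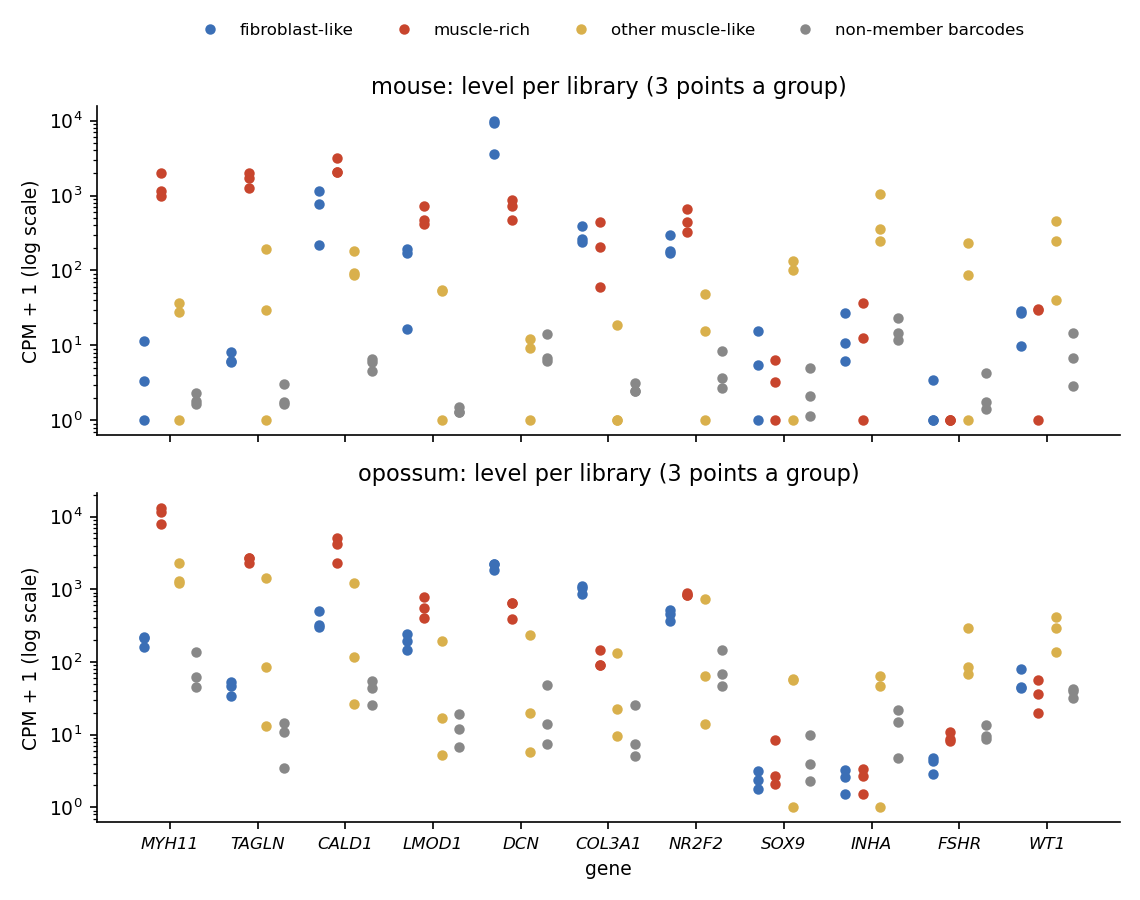
Level of 11 genes in CPM plus 1 (log axis), in mouse (top) and opossum (bottom), with 1 point per library for fibroblast-like members, muscle-rich members, other muscle-like members and the kept barcodes that are no members. MYH11, TAGLN, CALD1 and LMOD1 are highest in muscle-rich members, DCN in fibroblast-like ones, and FSHR in the other muscle-like members in 2 of 3 mouse and all 3 opossum libraries.

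Contractile genes outside the rule were high in members of both species, and most were higher in muscle-rich than in fibroblast-like members. In mouse 21 of 25 were higher in all 3 sums of members than in all 3 sums of other barcodes, beside 31.8% of features, and in opossum 18 of 21, beside 25.1%. Of 25 contractile genes named in mouse, 21 were higher in all 3 muscle-rich than in all 3 fibroblast-like sums, where 10.0% of all mouse features at 50 CPM or more in a sum were. Of 21 named in opossum, 17 were, against 20.6% of features. No gene of the list lay the other way. The muscle-rich limit was chosen after contractile levels were seen, so its counts are a description. The other muscle-like members are not part of the muscle-rich counts. TAGLN was at 1689, 1266 and 2006 CPM in muscle-rich and 5.00, 7.07 and 5.22 CPM in fibroblast-like mouse members. DES, the muscle intermediate filament desmin, was at 403, 392 and 336.98 CPM against 16.2, 18.8 and 49.7 CPM in mouse and 228, 181 and 113 CPM against 7.49, 22.6 and 17.3 CPM in opossum. MYOCD, the coactivator of serum response factor that drives smooth muscle genes, was at 67.1, 113 and 170.1 CPM against 0 in all 3 fibroblast-like mouse sums, and at 56.9, 10.4 and 32.2 CPM against 0 in the opossum ones.

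The promoter of Tagln is shown because it is a gene of this list whose sequence just before the start holds a CArG box, the binding motif of serum response factor. Tagln lies on mouse chromosome 9, and the 250 bases before the start of its canonical transcript are chr9:45847405-45847654 on the minus strand (GRCm39, GENCODE). The capitals mark the box, CC, then 6 letters that are A or T, then GG, which starts 64 bases before the transcript start.
Tagln promoter: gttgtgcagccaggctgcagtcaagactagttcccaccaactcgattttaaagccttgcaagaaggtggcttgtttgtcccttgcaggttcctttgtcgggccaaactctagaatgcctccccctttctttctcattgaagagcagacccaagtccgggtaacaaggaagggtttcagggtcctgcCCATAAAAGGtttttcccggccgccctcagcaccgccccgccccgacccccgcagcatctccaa
The box was searched for as letters on both strands. It occurred in the same window of 304 of 21770 protein-coding mouse genes (1.396%), and in 3 of 28 contractile genes (10.7%), the other two being Srf and Vcl. Of 43 matrix and fibroblast genes, 1 had it (2.33%). A match is a description of the letters and not a measured binding site.

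The genes that stood out in each kind were found by the ratio of summed levels and are listed as a description. In mouse members over other barcodes they included FHL2, a LIM-domain protein of muscle (1359, 1997 and 951 CPM in members and 2.25, 3.34 and 2.17 CPM elsewhere), and CYP26B1, the enzyme that degrades retinoic acid (423, 421 and 1092 CPM in members). In opossum 7 of the first 10 features had no name. The 10 named genes with the highest ratio there included ACTG2, the gamma actin of smooth muscle (233, 405 and 364 CPM in members and 3.18, 1.56 and 4.25 CPM elsewhere), and GLI2, a hedgehog effector (330.1, 307 and 593 CPM in members). TAGLN and RARRES2, the chemoattractant chemerin, were among the 10 highest named genes of both species.

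Of the 8 named genes with the highest ratio in each direction, PCP4L1 and CSRP1 came first in muscle-rich members of mouse and opossum, and THBD and UNC5C in fibroblast-like ones. The 8 of mouse muscle-rich members included TNNT2, a troponin of striated muscle (1133, 781 and 561 CPM against 9.97, 0 and 5.24 CPM), and CNN1, calponin (433, 209 and 417 CPM against 2.51, 0 and 5.27 CPM). The 8 of opossum muscle-rich members included CSRP1, a LIM protein of smooth muscle (361, 312 and 180.4 CPM against 1.33, 0.886 and 0 CPM), and SOST, the WNT inhibitor sclerostin (424, 338 and 293 CPM against 0.387, 0 and 5.02 CPM). Every library of a kind lay on the same side for these genes. The 8 of mouse fibroblast-like members included ENTPD2, an ectonucleotidase (515, 364 and 110.0 CPM against 5.84, 0 and 0 CPM), and CLEC3B, tetranectin (679, 575 and 232 CPM). The 8 of opossum fibroblast-like members included DPYD, the enzyme that breaks down pyrimidines (2149, 1758 and 1674 CPM against 13.8, 11.99 and 21.1 CPM), and RSPO3, which amplifies WNT signals (227, 216 and 221 CPM against 13.4, 0 and 8.86 CPM).

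In opossum, matrix genes were more often higher in fibroblast-like members. There 13 of 26 interstitial matrix genes were higher in all fibroblast-like sums, against 11.2% of features, and 3 in all muscle-rich sums (ELN, MFAP4 and TIMP3), against 20.6%. In mouse 5 of 37 were higher in all fibroblast-like sums (MGP, MFAP5, EFEMP1, TIMP1 and MMP2), near the 10.7% of features, and 7 in all muscle-rich sums (COL6A2, ELN, SPARC, ASPN, MFAP4, TIMP3 and CCN1), against 10.0%. ELN is elastin, MFAP4 an elastic fibre protein and TIMP3 an inhibitor of matrix proteases. Of 30 niche and growth factors named in mouse, 6 were higher in all fibroblast-like sums (CXCL12, IGF1, IGFBP3, IGFBP4, INHBA and FGF7) and 3 in all muscle-rich sums (TGFB1, TGFB3 and GAS6), and of 23 named in opossum 7 were higher in each, beside the same shares of features. IGF1 was at 737, 563 and 525 CPM in fibroblast-like and 110.3, 29.8 and 88.4 CPM in muscle-rich mouse members, and at 835, 777 and 552 CPM and 219, 229 and 119 CPM in opossum ones. GDNF, which maintains spermatogonial stem cells, was near the limit of detection, with 10.7, 0 and 19.4 CPM in muscle-rich and 0, 0 and 4.57 CPM in fibroblast-like mouse members. In opossum its values were 43.6, 22.6 and 16.3 CPM and 3.92, 7.09 and 3.18 CPM, so the muscle-rich sums were the higher ones there.

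Markers of vascular muscle were present in muscle-rich members. The pericyte and vascular muscle markers, 10 named in mouse and 7 in opossum, took 0.158, 0.0975 and 0.022% of muscle-rich counts in mouse and 0.188, 0.158 and 0.391% in opossum. RGS5, a pericyte marker, had a count in 24.2, 30.0 and 0% of muscle-rich members in mouse and 19.0, 16.0 and 38.1% in opossum, against 0.228, 0.225 and 0.0869% and 1.99, 1.81 and 3.36% of barcodes that are no members. NOTCH3, the receptor of mural cells, was at 140.4, 211 and 6.77 CPM in mouse and 11.3, 3.45 and 16.5 CPM in opossum. Mouse library 3 thus stood apart from the other two, with RGS5 at 0 and NOTCH3 low. Endothelial markers took 0.0122, 0.177 and 0.00153% of muscle-rich counts in mouse, highest in library 2, and 0.0285, 0.0329 and 0.0413% in opossum. In the species comparison described next, edgeR called RGS5 (2.70 ± 1.00 on the log2 scale), ABCC9 (2.42 ± 0.49) and CSPG4 (1.41 ± 0.43) higher in opossum muscle-rich members. These were 3 of 7 markers of this list tested, where 21.5% of all muscle-rich genes were called higher. MCAM, KCNJ8, HIGD1B and RGS4 were not called, and the median of the 7 was -0.17 against 0.10 over all genes. Of 4 endothelial markers FLT1 (3.79 ± 0.78) and TEK (2.49 ± 0.85) were called higher. No marker of either list was called lower. RGS5 lost its call without mouse library 2, CSPG4 without mouse library 3 and TEK without mouse library 1 or 3, and DESeq2 called neither RGS5 (2.80, adjusted p = 0.21) nor TEK (2.56, adjusted p = 0.067). In all muscle-like members 1 of 7 and 2 of 5 were called higher, where 17.8% of genes were, and NOTCH3 was called lower. The part of vascular cells in the results below was not tested.

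Opossum and mouse members were then compared gene by gene, which asks how the somatic cells of the tubule wall and interstitium differ between a marsupial and a placental mammal. The comparison used genes with the same symbol in both species, without the marker and exclusion genes. Equal symbols do not prove equal descent, and species cannot be told apart here from how each annotation captures a gene. A gene was called at an adjusted p under 0.05 and an absolute log2 difference of at least 1. All p-values of this comparison are from edgeR's quasi-likelihood test with Benjamini-Hochberg adjustment over all genes tested, and differences are log2 opossum minus mouse ± SE, 3 libraries against 3. In all members 3967 of 7838 genes were called (50.6%), in fibroblast-like members 3540 of 6504 (54.4%), in muscle-like members 2393 of 6857 (34.9%) and in muscle-rich members 2448 of 5654 (43.3%). With shares this high, a list is of interest by its direction, read against 27.0% of fibroblast-like genes called higher and 27.4% lower in opossum, and 21.5% and 21.8% of muscle-rich genes (17.8% and 17.1% of muscle-like genes). The share of all genes without overlap between the species was not counted, so a lack of overlap alone sets no gene apart. The muscle-rich balance depends on the scaling: with DESeq2 the median log2 difference over all genes was 0.33 in place of 0.10, and 56.3% of calls were higher in opossum in place of 49.7%.

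The largest differences in fibroblast-like members included FN1, POSTN, VEGFA, FGL2 and GNB2. FN1, fibronectin, was at 4.95, 4.48 and 9.63 CPM in mouse and 818, 619 and 465.50 CPM in opossum (log2 difference 6.56 ± 0.51, adjusted p = 2.6e-05). POSTN, the matricellular protein periostin, was at 9.64, 2.93 and 3.86 CPM in mouse and 276, 355 and 491 CPM in opossum (log2 difference 5.81 ± 0.51, adjusted p = 3.3e-05). VEGFA, the angiogenic growth factor, was at 9.96, 7.07 and 10.4 CPM in mouse and 820.2, 454 and 268 CPM in opossum (log2 difference 5.71 ± 0.59, adjusted p = 6.1e-05). Every opossum library lay far above every mouse library for all 3, as for FIGN and SPON1. FGL2, a fibrinogen-like immune regulator, went the other way, with 863, 917 and 406 CPM in mouse and 2.70, 6.20 and 7.43 CPM in opossum (log2 difference -7.22 ± 0.55, adjusted p = 2.6e-05). GNB2, a G protein subunit, was at 418, 424 and 256 CPM in mouse and 6.45, 14.0 and 6.71 CPM in opossum (log2 difference -5.48 ± 0.46, adjusted p = 2.7e-05). The libraries of the species did not overlap for any of these 5 genes, which was a condition for naming them. Leaving out any 1 library kept every call. In non-member barcodes the mouse and opossum means were 199 and 4.04 CPM for GNB2, 0.742 and 324 CPM for FIGN and 0.282 and 101 CPM for VEGFA. These gaps were thus not particular to fibroblast-like members. The same means were 9.15 and 16.9 CPM for FN1, 7.75 and 15.0 CPM for POSTN, 7.00 and 51.5 CPM for SPON1 and 1.93 and 4.74 CPM for FGL2. Other genes much lower in opossum fibroblast-like members, OTUB2, TSSK6, LRRC46 and FBP1, had mean levels in non-member mouse barcodes above their own fibroblast-like mean, 525.61, 433, 1049 and 601 CPM, and the part of RNA from other cells in them was not tested.

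Basement membrane genes were mostly higher in opossum fibroblast-like members. Of 14 tested, 8 were called higher and 1 lower, with a median log2 difference of 1.45 against 0.04 over all genes. LAMA2, the laminin alpha 2 chain, was at 772, 739 and 364 CPM in mouse and 2372, 1692 and 1582 CPM in opossum (log2 difference 1.46 ± 0.42, adjusted p = 0.013). LAMB1, the laminin beta 1 chain, was at 200.4, 200.5 and 148 CPM in mouse and 691, 453 and 478 CPM in opossum (log2 difference 1.43 ± 0.33, adjusted p = 0.0045). COL4A2, a collagen IV chain, was at 99.6, 95.0 and 63.6 CPM in mouse and 667, 329.8 and 438 CPM in opossum (log2 difference 2.33 ± 0.38, adjusted p = 0.0006). The lowest opossum library lay above the highest mouse library for all 3. COL4A1, its partner chain, differed by 2.12 ± 0.44, LAMA4 by 3.32 ± 0.41 and LAMC1 by 2.24 ± 0.35, and LAMA5 and NID1 were also called higher. LAMB2 was the gene called lower, at 250.4, 198 and 72.1 CPM in mouse and 23.8, 45.1 and 26.7 CPM in opossum (log2 difference -2.61 ± 0.47, adjusted p = 0.001).

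In muscle-rich members 4 of 14 genes of this list were called higher (LAMA4, LAMA5, LAMB1 and LAMC1) and 2 lower, with a median of 0.30, and in all muscle-like members 3 of 15 higher, without LAMB1 (1.303), and 2 lower. The test of the difference between the kinds, given below as an interaction, called COL4A2 (-1.78) and NID1 (-2.02) of 14, and neither with all muscle-like members. COL4A2 lost that call in 4 of 6 fits with 1 library left out, and NID1 without mouse library 3 (-1.13). LAMC1, the laminin gamma 1 chain, was at 29.2, 89.9 and 39.9 CPM in mouse and 324, 256 and 279 CPM in opossum (log2 difference 2.53 ± 0.41, adjusted p = 0.00031). COL4A3, a collagen IV chain of specialised basement membranes, was lower, at 607, 451 and 1255 CPM in mouse and 279, 195 and 131 CPM in opossum (log2 difference -2.21 ± 0.46, adjusted p = 0.0018). LAMA2 did not pass, with log2 difference 0.72 ± 0.40, adjusted p = 0.16, and neither did COL4A1 (0.77 ± 0.43) and COL4A2 (0.42 ± 0.38). HSPG2, the other gene called lower (-1.73 ± 0.42), lost its call without mouse library 3 (-1.07) or opossum library 3 (-1.09).

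Interstitial matrix genes moved both ways. In fibroblast-like members 9 of 21 were called higher and 7 lower, with a median of 0.51, and in muscle-rich members 6 of 18 higher and 9 lower, with a median of -1.50 (6 and 9 of 18 also in all muscle-like members). Called higher in both kinds were COL5A1, COL5A2, FN1, FBN1, POSTN and MMP2, of which the first pair are collagen V chains and FBN1 is fibrillin. MMP2, a gelatinase, was at 10.0, 18.8 and 2.27 CPM in mouse and 428, 456 and 316 CPM in opossum in fibroblast-like members (log2 difference 5.00 ± 0.55, adjusted p = 7.8e-05). Called lower in both kinds were FBLN1, ELN, MFAP4, SERPINH1 and TIMP2, which form or shape elastic fibres, fold collagen or inhibit proteases. TIMP2 was at 1473, 1900.3 and 409.9 CPM in mouse and 202, 140.4 and 137 CPM in opossum in fibroblast-like members (log2 difference -3.11 ± 0.55, adjusted p = 0.00098). MFAP4 was at 635, 451 and 401 CPM in mouse and 49.2, 42.9 and 20.4 CPM in opossum in muscle-rich members (log2 difference -3.99 ± 0.45, adjusted p = 2.5e-05). The species did not overlap for MMP2, TIMP2 or MFAP4. ELN lost its call in fibroblast-like members without mouse library 1 (-1.98) or 2 (-1.92), and in muscle-rich members without mouse library 3 (-1.15) or opossum library 3 (-1.17).

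Abundant matrix genes differed by gene. MGP, the matrix Gla protein that inhibits calcification, was at 3212, 1546 and 1254 CPM in mouse and 2072, 1028 and 1664 CPM in opossum in fibroblast-like members (log2 difference -0.47 ± 0.47, adjusted p = 0.42). SPARC, a collagen-binding glycoprotein, was at 1645, 1541 and 678 CPM in mouse and 4107, 2946 and 3099 CPM in opossum in fibroblast-like members (log2 difference 1.26 ± 0.45, adjusted p = 0.035) and at 2445, 2674 and 2040.0 CPM in mouse and 4148, 4516 and 3676 CPM in opossum in muscle-rich members (log2 difference 0.59 ± 0.42, adjusted p = 0.28). The species overlapped for MGP and not for SPARC, which was called in fibroblast-like members and did not pass in muscle-rich ones. The SPARC call was lost among barcodes with at least 2000 counts (1.297, adjusted p = 0.096), without the 8% highest doublet scores (1.10, adjusted p = 0.068) and with only the marker genes both species name (0.99). TIMP3 differed in muscle-rich members, at 1110.0, 871 and 1634 CPM in mouse and 192, 264 and 142 CPM in opossum (log2 difference -2.84 ± 0.43, adjusted p = 0.00018), and CCN1, an integrin ligand, in fibroblast-like members, at 55.5, 87.0 and 36.9 CPM in mouse and 956, 1322 and 803 CPM in opossum (log2 difference 3.94 ± 0.45, adjusted p = 8.8e-05). CCN2, a related protein, was called in muscle-rich members at -1.41 ± 0.42, and no leave-one-out fit other than that without mouse library 2 kept this call (-0.85 to -1.18 in the others), nor did the fit with all muscle-like members (-1.58).

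Contractile genes of muscle-rich members moved both ways, and several calls rested on 1 library. Of 20 tested, 2 were called higher (SYNPO2 and ACTG2) and 7 lower, with a median of -0.14 against 0.10 over all genes, and in all muscle-like members 1 higher and 8 lower. CALD1, the actin-binding caldesmon, was at 3139.6, 2076 and 2088 CPM in mouse and 5003, 4182 and 2273 CPM in opossum (log2 difference 0.41 ± 0.48, adjusted p = 0.51). TAGLN was at 1689, 1266 and 2006 CPM in mouse and 2682, 2659 and 2303 CPM in opossum (log2 difference 0.38 ± 0.41, adjusted p = 0.48). MYLK, the kinase that starts smooth muscle contraction, was at 2039, 981 and 1654 CPM in mouse and 1642, 1338 and 1030.1 CPM in opossum (log2 difference -0.49 ± 0.44, adjusted p = 0.39). None of the 3 passed the test, and the species overlapped for CALD1 and MYLK. SYNPO2, an actin-bundling protein, was higher, at 76.1, 0 and 17.6 CPM in mouse and 979, 885 and 636 CPM in opossum (log2 difference 4.22 ± 0.62, adjusted p = 0.00014). PDLIM3, a Z-line protein, was lower, with log2 difference -2.53 ± 0.36, adjusted p = 0.00012. FLNA, the actin crosslinker filamin, was at 490.4, 332 and 582 CPM in mouse and 256, 115 and 70.1 CPM in opossum (log2 difference -1.97 ± 0.48, adjusted p = 0.0046), a call that was lost without opossum library 2 (-1.39). Calls on DES, CSRP1, CNN1, MYOCD and ACTG2 each also rested on 1 or more libraries: DES went from -1.34 to -0.78 without mouse library 1, -0.95 without opossum library 2 and -0.70 without opossum library 3, and CSRP1 from -2.04 to -1.13 without mouse library 1. ACTG2, called higher at 1.76, lost its call without mouse library 3 (1.68) and with all muscle-like members (0.96), MYOCD went to -1.38 and -1.29 without mouse library 3 and opossum library 2, and CNN1 to between -0.72 and -1.30 in all but the fit without mouse library 2 and to -1.18 with DESeq2 (adjusted p = 0.055). ACTG2 is nearly identical to other actins, of which ACTA2 has no name in opossum, so its counts are uncertain.

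In fibroblast-like members, contractile genes are low and 7 of 18 were called higher in opossum and 4 lower (ACTG2, TPM1, CSRP1 and PDLIM3, median of all 18 at 0.30). TPM1, a tropomyosin, lost its call without mouse library 2 (-1.10). TAGLN was at 5.00, 7.07 and 5.22 CPM in mouse and 51.7, 46.4 and 33.5 CPM in opossum (log2 difference 2.75 ± 0.49, adjusted p = 0.00096). In mouse, counts of ACTA2 and MYL9 also moved barcodes out of this kind, and in opossum only MYH11 did. The part of this unequal split in the contractile calls here was not tested. With only the marker genes that both species name, which gave 166, 242 and 126 fibroblast-like barcodes in mouse, TAGLN turned to -3.35. ACTN1 and ITGA8 lost their calls there. CSRP1 was at 306, 338 and 47.1 CPM in mouse and 1.33, 0.886 and 0 CPM in opossum, lower in every opossum library.

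**Figure D3:**
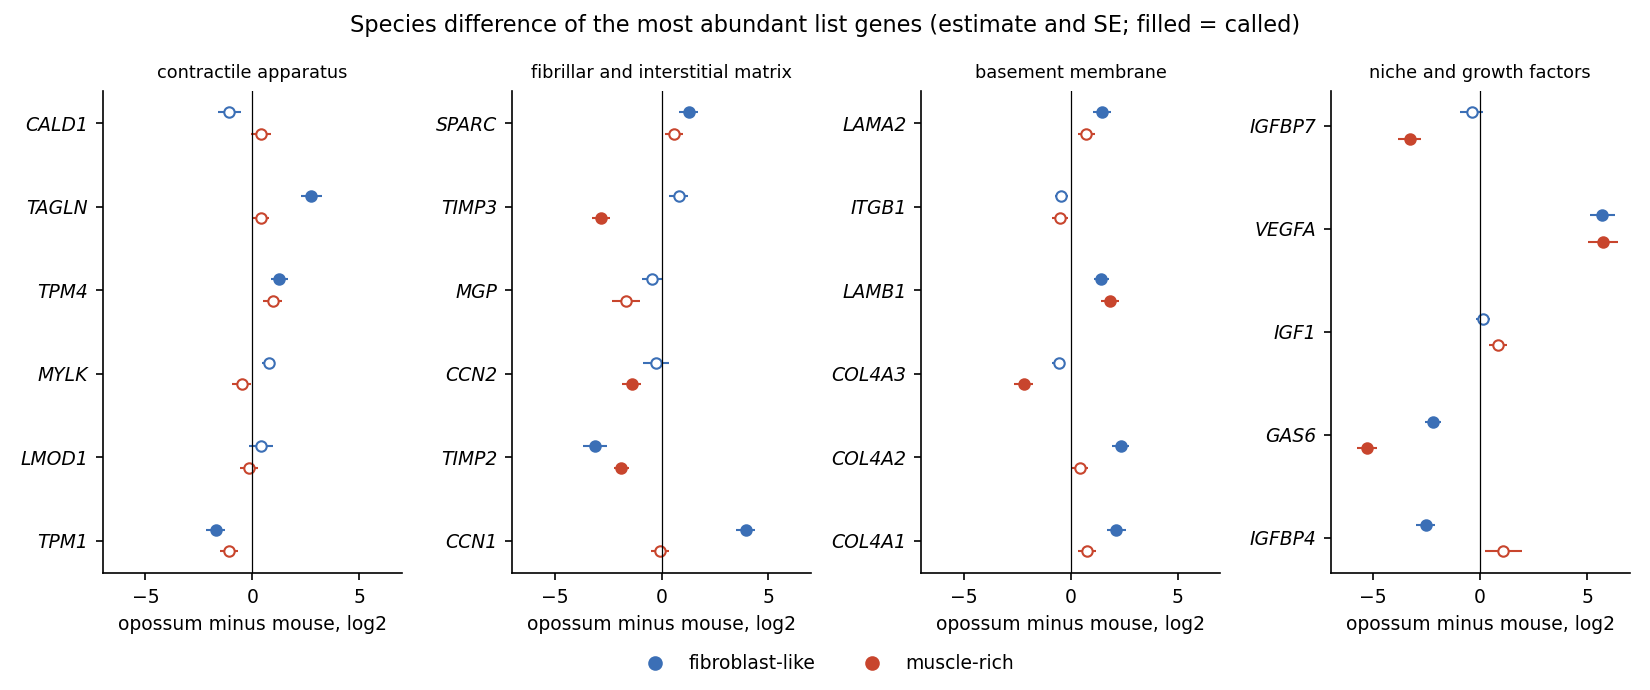
Log2 difference opossum minus mouse ± SE in fibroblast-like and muscle-rich members for the most abundant genes of 4 lists, with called genes as filled points and a line at 0. Basement membrane genes such as LAMA2 (1.46) and COL4A2 (2.33) are filled and right of 0 in fibroblast-like members, and CALD1 (0.41) and MYLK (-0.49) in muscle-rich members are not filled.

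Secreted growth factors and their binding proteins differed by gene. In fibroblast-like members 3 of 13 tested were called higher (FGF7, VEGFA and RSPO3) and 4 lower (IGFBP4, INHBA, TGFB2 and GAS6). IGF1, the insulin-like growth factor, was at 737, 563 and 525 CPM in mouse and 835, 777 and 552 CPM in opossum and did not differ beyond its spread (log2 difference 0.13 ± 0.35, adjusted p = 0.77). RSPO3 was at 2.51, 2.36 and 0 CPM in mouse and 227, 216 and 221 CPM in opossum (log2 difference 6.59 ± 0.50, adjusted p = 2.6e-05). INHBA, the activin subunit, was at 54.7, 49.5 and 26.4 CPM in mouse and 0.193, 0 and 0 CPM in opossum. RSPO3 and INHBA thus lay on opposite sides with no overlap. In muscle-rich members 3 of 10 were called higher (BMP2, TGFB3 and VEGFA) and 2 lower, and in all muscle-like members 2 of 9 higher and 3 lower, without TGFB3 (1.44). IGFBP7, which binds insulin-like growth factors, was at 3942, 5222 and 1440.2 CPM in mouse and 273, 366 and 577 CPM in opossum (log2 difference -3.29 ± 0.54, adjusted p = 0.00036), while in fibroblast-like members it overlapped between the species (-0.39 ± 0.53). GAS6, the ligand of TAM receptors, was at 497, 509 and 1027 CPM in mouse and 20.2, 21.5 and 19.8 CPM in opossum (log2 difference -5.28 ± 0.45, adjusted p = 4.5e-06). GDNF in muscle-rich members overlapped (log2 difference 0.47 ± 0.63, adjusted p = 0.57). BMP2 lost its call in 4 of 6 leave-one-out fits (1.09 without mouse library 3, 2.17 to 2.55 in the others) and with DESeq2 (2.12, adjusted p = 0.099).

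Among receptors and signalling genes, 8 of 22 were called higher and 4 lower, HES1 and S1PR3 among them, in fibroblast-like members, and 8 of 19 higher and 5 lower in muscle-rich ones, among them HES1, FGFR1, IGF1R and LPAR1. In all muscle-like members 3 of 22 were called higher (GLI2, HHIP and TGFBR2) and 5 lower, without IGF1R (-0.25) and LPAR1 (-1.10). The hedgehog effector GLI2 was at 19.8, 23.4 and 20.9 CPM in mouse and 458, 237 and 323 CPM in opossum in fibroblast-like members (log2 difference 3.83 ± 0.40, adjusted p = 6.2e-05) and at 5.79, 30.0 and 69.9 CPM in mouse and 1439, 1126 and 928 CPM in opossum in muscle-rich ones (log2 difference 4.54 ± 0.58, adjusted p = 6e-05). HHIP, a hedgehog-induced antagonist, was at 52.7, 0 and 111 CPM in mouse and 741, 514 and 434 CPM in opossum in muscle-rich members (log2 difference 2.68 ± 0.51, adjusted p = 0.00094). PTCH1, the hedgehog receptor, overlapped at 280.4, 271 and 524 CPM in mouse and 521, 445 and 479.6 CPM in opossum (log2 difference 0.15 ± 0.37, adjusted p = 0.78), unlike the other two. EDNRB, an endothelin receptor, was at 2.51, 0 and 0 CPM in mouse and 327, 153 and 225 CPM in opossum in fibroblast-like members (log2 difference 7.58 ± 0.71, adjusted p = 4.3e-05). HES1, a NOTCH target, was lower in both kinds, by -3.73 ± 0.49 and -3.20 ± 0.42. In muscle-rich members the higher calls on NOTCH2 (1.48), JAG1 (1.23) and EDNRB (1.227) were lost without mouse library 3, and that on EDNRB also without mouse library 2 (2.07), and in fibroblast-like members that on ESR1 without opossum library 1 (0.97). Calls on the other named lower genes of muscle-rich members rested on single libraries. FGFR1 lost its call without opossum library 2 (-1.04) or 3 (-1.08), LPAR1 without mouse library 3 (-1.09), and IGF1R without any library other than mouse library 2 (-0.52 to -0.80) or with DESeq2 (-0.80).

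Transcription factors were more often called higher than lower in opossum fibroblast-like members, 10 of 21 against 5 (TCF21, TWIST1, KLF4, HIC1 and OSR1, median of all 21 at 1.09). In muscle-rich members 6 of 19 were called higher and 3 lower (PRRX1, KLF4 and HIC1, median of all 19 at 0.63), and in all muscle-like members 5 of 22 each way, without MEIS1 (1.27). LHX9, a gonadal LIM homeodomain factor, was at 44.9, 50.4 and 38.1 CPM in mouse and 681, 526.42 and 408 CPM in opossum in fibroblast-like members (log2 difference 3.47 ± 0.37, adjusted p = 7e-05). OSR1, a factor of mesenchymal progenitors, went the other way, at 357, 371 and 98.3 CPM in mouse and 14.3, 20.2 and 12.4 CPM in opossum (log2 difference -4.27 ± 0.52, adjusted p = 0.00012), as did TWIST1, at 52.6, 49.5 and 60.8 CPM in mouse and 0.57, 1.77 and 0 CPM in opossum (log2 difference -6.02 ± 0.60, adjusted p = 5.2e-05). None of these 3 genes overlapped between the species. NR2F1, an orphan nuclear receptor, had no count in any fibroblast-like mouse sum and 229, 206 and 129.8 CPM in opossum, whereas NR2F2, its paralog and a known marker of testis stroma, was at 169, 182 and 300.2 CPM in mouse and 517, 455 and 368 CPM in opossum (log2 difference 0.94 ± 0.34, under the limit of 1). Of the higher genes in fibroblast-like members, WT1 lost its call without mouse library 1 (1.48), mouse library 2 (1.43) or opossum library 3 (0.93) and with DESeq2 (1.16), EBF1 without mouse library 2 (1.59) and MAF without the 8% highest doublet scores (0.97). TCF21 lost its call without mouse library 1 (-1.06), mouse library 2 (-1.63) or opossum library 2 (-1.48), and KLF4 in muscle-rich members without mouse library 3 (-1.14). In muscle-rich members GATA4, a gonadal factor, was at 58.5, 90.3 and 71.2 CPM in mouse and 299, 261 and 267 CPM in opossum (log2 difference 1.74 ± 0.36, adjusted p = 0.0016).

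Retinoic acid triggers meiosis in the testis, and the members express enzymes that make it. ALDH1A1, which makes retinoic acid, was at 963, 1293 and 354 CPM in mouse and 943, 1076 and 1099 CPM in opossum in fibroblast-like members (log2 difference 0.12 ± 0.46, adjusted p = 0.84) and overlapped. ALDH1A2, a related enzyme, was at 35.4, 31.2 and 89.8 CPM in mouse and 199.8, 136 and 141 CPM in opossum (log2 difference 1.61 ± 0.42, adjusted p = 0.0081). RBP4, which carries retinol in blood, was at 136, 118 and 264 CPM in mouse and 0, 0 and 0.946 CPM in opossum in muscle-rich members. Of 7 genes of this list, 3 were called higher in fibroblast-like members (ALDH1A2, ALDH1A3 and RDH10) and 1 in muscle-rich members (ALDH1A3), and RBP4 and DHRS3 were among those called lower in muscle-rich members. In all muscle-like members 2 of 8 were called higher and 4 lower. DHRS3 lost its call in muscle-rich members without mouse library 1 (-0.95) or opossum library 3 (-1.59).

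Early response genes, which dissociation of tissue is known to raise, moved with species and library. In fibroblast-like members 2 of 14 were called higher and 6 lower in opossum, with a median log2 difference of -1.23, in muscle-rich members 3 of 14 higher and 7 lower, with a median of -1.65, and in all muscle-like members 2 of 15 higher and 8 lower. Several of these calls rested on 1 library: in fibroblast-like members the calls on DUSP1 (-0.69) and ZFP36 (-2.29) were lost without mouse library 3 and those on both higher genes, FOSL2 (0.86) and EGR1, without mouse library 1. The HSPA8 call was lost without mouse library 2 (-1.16) and the DNAJB1 call without mouse library 1 (-1.07), and FOSL2 and DUSP1 lost theirs without other libraries as well. As a list they took 0.187, 0.189 and 1.04% of fibroblast-like counts in mouse and 0.472, 0.432 and 0.371% in opossum, so mouse library 3 stood apart. JUNB was at 181, 127 and 1580.5 CPM in mouse and 24.2, 16.9 and 7.23 CPM in opossum in fibroblast-like members (log2 difference -5.31 ± 0.98, adjusted p = 0.0012). EGR1, of the same class, was at 67.6, 28.3 and 732 CPM in mouse and 2527, 2367 and 2214 CPM in opossum (log2 difference 3.06 ± 0.95, adjusted p = 0.019), and lost its call without mouse library 1 (2.73). FOS overlapped at 100.0, 84.7 and 1944 CPM in mouse and 861, 762 and 478 CPM in opossum. The part of this response in other genes was not tested. Germ cell markers were called lower in opossum for 8 of 12 genes in fibroblast-like and 7 of 12 in muscle-rich members (6 of 12 in all muscle-like ones), beside a share of counts of 2.54, 2.74 and 3.10% in fibroblast-like mouse members and 0.391, 0.582 and 0.749% in opossum ones.

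The largest differences in muscle-rich members by the same rule included NEDD4, a ubiquitin ligase, at 373, 480.1 and 727 CPM in mouse and 6.94, 6.54 and 5.05 CPM in opossum (log2 difference -6.59 ± 0.47, adjusted p = 2.1e-06). FGL2 was again lower, at 1022, 693 and 1948 CPM in mouse and 28.3, 19.1 and 26.7 CPM in opossum (log2 difference -5.87 ± 0.53, adjusted p = 5.8e-06). SULF1, which edits heparan sulfate, was higher, at 11.4, 0 and 7.5963 CPM in mouse and 669, 693 and 505 CPM in opossum (log2 difference 6.02 ± 0.55, adjusted p = 5.8e-06), as was ACSL4, a fatty acyl-CoA synthetase, at 11.7, 0 and 17.8 CPM in mouse and 1874, 2098 and 1183 CPM in opossum (log2 difference 6.61 ± 0.58, adjusted p = 5.4e-06). NR4A3, an orphan nuclear receptor, was at 0, 55.0 and 11.2 CPM in mouse and 568.08, 699 and 641 CPM in opossum (log2 difference 5.56 ± 0.64, adjusted p = 2.6e-05). None of these 5 overlapped between the species, which was a condition for naming them, and each kept its call without any 1 library. In non-member barcodes the mouse and opossum means were 4.23 and 484 CPM for ACSL4 and 0.902 and 74.3 CPM for NR4A3. The gaps of these genes were thus not particular to muscle-rich members. The same means were 4.84 and 17.6 CPM for SULF1, 19.8 and 9.49 CPM for NEDD4 and 1.93 and 4.74 CPM for FGL2. MAP1LC3A, RASL11A, RPL39, FBXL7 and CDC42EP3 were also among the largest lower differences. Of these, MAP1LC3A and CDC42EP3 had mouse muscle-rich means of 400.4 and 239 CPM, below the 516 and 308 CPM of barcodes that are no members, and the part of RNA from other cells in them was not tested.

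A difference of mapping or annotation that scales a gene alike in all cells of a species cancels when the step from fibroblast-like to muscle cells is compared between species. The effect of annotation on the split into kinds does not cancel, since opossum muscle-like members rest on MYH11 alone. With only the marker genes that both species name, muscle-like barcodes numbered 17, 6 and 94 in mouse. The interaction of kind and species, fitted with edgeR and the library as a block, called 135 of 7711 genes (1.75%) with all muscle-like members, 57 with a larger step to muscle in opossum (0.739%) and 78 with a smaller one (1.01%). With muscle-rich members it called 359 of 6807 (5.27%), 145 (2.13%) and 214 (3.14%). Larger and smaller refer to the signed log2 step, so a smaller step can be a larger fall, as for DPYD in opossum. Values below are from muscle-rich members. The summed counts behind them were 33182 to 443259 per mouse library and 526987 to 1057250 per opossum library, so mouse library 2, with 20 muscle-rich barcodes, is the least precise.

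PENK, the opioid precursor proenkephalin, was high in a different kind in each species. It was at 45.2, 73.9 and 34.5 CPM in muscle-rich and 617, 541 and 149 CPM in fibroblast-like mouse members, and at 698, 1325 and 1031 CPM and 17.1, 17.6 and 33.1 CPM in the opossum ones (edgeR interaction 8.32 ± 0.49, adjusted p = 3e-08). In mouse PENK lies on chromosome 4 (4132722 to 4141856, GRCm39). It was higher in fibroblast-like members in all 3 mouse libraries and higher in muscle-rich members in all 3 opossum libraries. SLIT2, a guidance ligand, was at 0, 89.6 and 15.0 CPM in muscle-rich and 128, 84.3 and 46.8 CPM in fibroblast-like mouse members, and at 995, 440.3 and 536 CPM and 11.4, 3.51 and 21.4 CPM in opossum (edgeR interaction 7.87 ± 0.75, adjusted p = 9.7e-06). The SLIT2 values of the mouse kinds overlapped and those of the opossum kinds did not. ENTPD2 was at 5.84, 0 and 0 CPM and 515, 364 and 110.0 CPM in mouse and at 100.5, 107 and 71.6 CPM and 51.2, 40.2 and 27.6 CPM in opossum (edgeR interaction 8.15 ± 0.63, adjusted p = 6.6e-07). DUSP22, a phosphatase, was of the same direction (interaction 5.18 ± 0.61, adjusted p = 8.1e-05).

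DPYD, a fibroblast-like gene of opossum, was at 87.8, 89.9 and 207 CPM in muscle-rich and 153, 109 and 119 CPM in fibroblast-like mouse members, and at 13.8, 11.99 and 21.1 CPM and 2149, 1758 and 1674 CPM in opossum (edgeR interaction -6.92 ± 0.54, adjusted p = 6.6e-07). FIBIN, a secreted protein, was at 309, 120.0 and 467 CPM and 7.48, 30.3 and 10.1 CPM in mouse and at 3.63, 3.47 and 0.814 CPM and 126, 53.0 and 10.6 CPM in opossum (edgeR interaction -8.54 ± 0.77, adjusted p = 4.7e-06). FIBIN was higher in muscle-rich members in every mouse library and higher in fibroblast-like members in every opossum library, least so in opossum library 3. VEGFC, the lymphatic growth factor, was at 101, 70.8 and 81.6 CPM in opossum fibroblast-like members and 5.63, 6.95 and 0 CPM in muscle-rich ones, while in mouse it was at 12.5, 11.8 and 0 CPM and 23.4, 90.4 and 4.51 CPM (edgeR interaction -6.43 ± 1.14, adjusted p = 0.0028). TMEFF2 and FAM89A were of the same direction (interaction -7.17 ± 1.14, adjusted p = 0.0011 and interaction -5.89 ± 0.86, adjusted p = 0.00052).

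Of the lists, the contractile one had 7 of 21 genes called in this comparison, 2 with a larger step to muscle in opossum (ACTG2 and CSRP1) and 5 with a smaller one, among them TAGLN, ACTN1, VCL and ITGA8, where 2.13% and 3.14% of all genes were. The TAGLN call was lost without mouse library 1 (-1.67), mouse library 3 (-1.85) or opossum library 2 (-2.18). With all muscle-like members 2 were called with a larger and 3 with a smaller step, and the TAGLN (-2.79) and ACTN1 (-3.14) calls were lost. Likewise the calls were lost for ACTN1 (-2.26) without mouse library 1 and for VCL without mouse library 3 (-1.82). The fibroblast-like side of these steps was split off by ACTA2, MYH11 and MYL9 in mouse and by MYH11 alone in opossum. Of 22 matrix genes, ASPN, LOXL1, TIMP3 and CCN1 were called, all with a smaller step in opossum, and of 19 niche genes 3 with a larger (IGFBP4, INHBA and TGFB2) and 2 with a smaller one (IGFBP7 and GAS6). With all muscle-like members the matrix calls were ASPN, TIMP3 and CCN1 and the niche call INHBA alone, with GAS6 at -0.63 in place of -2.86. INHBA was at 54.7, 49.5 and 26.4 CPM in fibroblast-like mouse members and 0 in all muscle-rich ones, and at 29.9, 33.1 and 12.3 CPM in muscle-rich opossum members with 0.193, 0 and 0 CPM in fibroblast-like ones. ASPN, asporin, was at 139, 151 and 4.80 CPM in muscle-rich mouse members and 0 in fibroblast-like ones, and at 0, 1.97 and 4.54 CPM and 20.2, 19.99 and 7.13 CPM in opossum. Mouse library 3, which lacked RGS5, was also the low one for ASPN. LOXL1 lost its call without mouse library 1 (-2.25) and IGFBP4 without mouse library 1 (2.91).

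**Figure D4:**
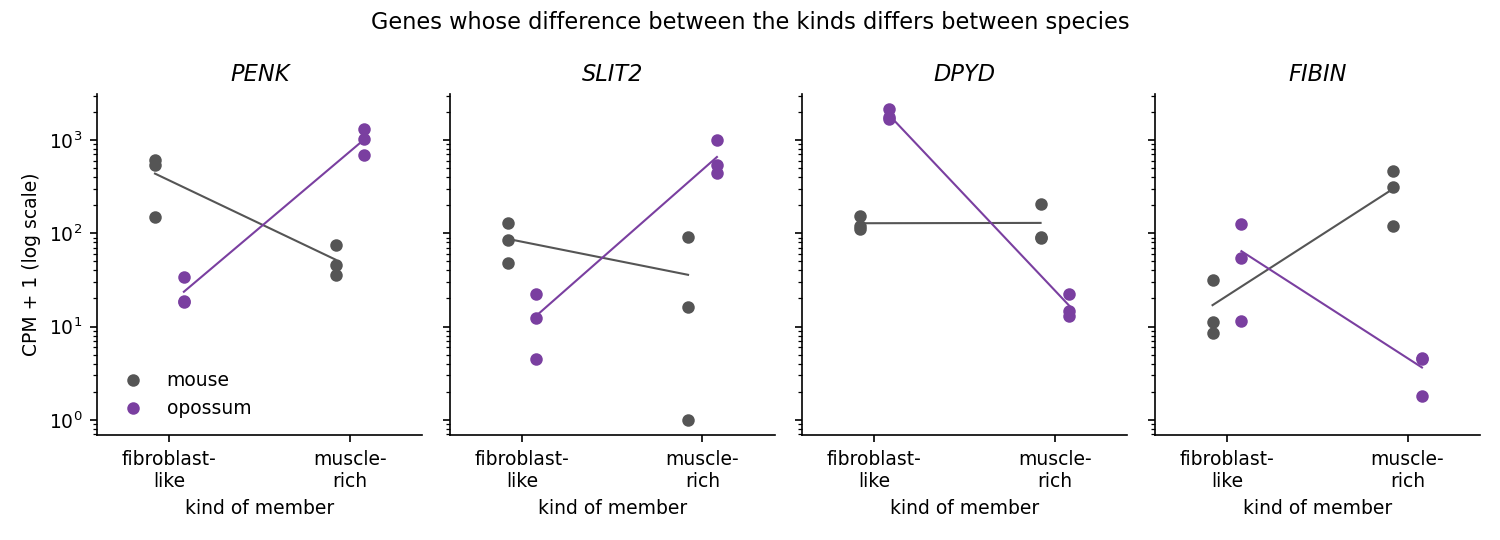
Level of PENK, SLIT2, DPYD and FIBIN in CPM plus 1 (log axis) in fibroblast-like and muscle-rich members of each species, with 1 point per library and lines joining the means. PENK falls from fibroblast-like to muscle-rich members in mouse (617, 541 and 149 to 45.2, 73.9 and 34.5 CPM) and rises in opossum (17.1, 17.6 and 33.1 to 698, 1325 and 1031 CPM).

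Bulk opossum testis asked how the genes of these cells stand against the whole organ as it matures. The polyA libraries were 2 at 1 month, 1 at 2 months, 4 at 3 months, 3 at 4 months and 6 in adults, and values are the deposited TPM, a measure per transcript length. In bulk, fewer cells of a type and less RNA per cell cannot be told apart, and germ cell RNA rises over the same time: PRM1 was at 0.333 and 0.407 TPM at 1 month and a lowest, median and highest value of 7533, 11945 and 17549.5 TPM in the adults. limma on log2(TPM + 1) called 8376 of 18890 genes (44.3%) between adult and 1 month, 28.9% higher and 15.4% lower in adults, with a median log2 difference of 0.65 over all genes. The scale understates changes of low genes.

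The proteoglycan genes DCN and LUM fell with age and the muscle myosin did not pass the test. DCN was at 1738 and 1239 TPM at 1 month and a lowest, median and highest value of 21.4, 91.4 and 197 TPM in the adults (limma log2 difference -4.16 ± 0.62, adjusted p = 7.8e-05). LUM, the proteoglycan lumican, was at 999 and 631 TPM at 1 month and a lowest, median and highest value of 2.44, 11.1 and 16.4 TPM in the adults (limma log2 difference -6.26 ± 0.81, adjusted p = 2.2e-05). Both 1-month libraries lay above every adult for DCN and LUM, and means went from 1488 to 96.7 TPM and from 815 to 10.5 TPM. MYH11 was at 103 and 122 TPM at 1 month and a lowest, median and highest value of 20.4, 161 and 194 TPM in the adults (limma log2 difference -0.16 ± 0.73, adjusted p = 0.86), and the ages overlapped. COL1A1 was at 30.5 and 23.2 TPM at 1 month and a lowest, median and highest value of 0.41, 5.34 and 8.39 TPM in the adults (limma log2 difference -2.65 ± 0.76, adjusted p = 0.011). It lost its call without 1-month library 1 (-2.46) or 2 (-2.84). COL3A1, a chain of collagen III, was at 121 and 99.4 TPM at 1 month and a lowest, median and highest value of 1.62, 36.6 and 63.1 TPM in the adults (limma log2 difference -2.50 ± 1.07, adjusted p = 0.066) and did not pass. At 2 months the single polyA library held 399 TPM of DCN, 119 TPM of COL1A1 and 269 TPM of MYH11, so COL1A1 was higher there than in both 1-month libraries.

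**Figure D5:**
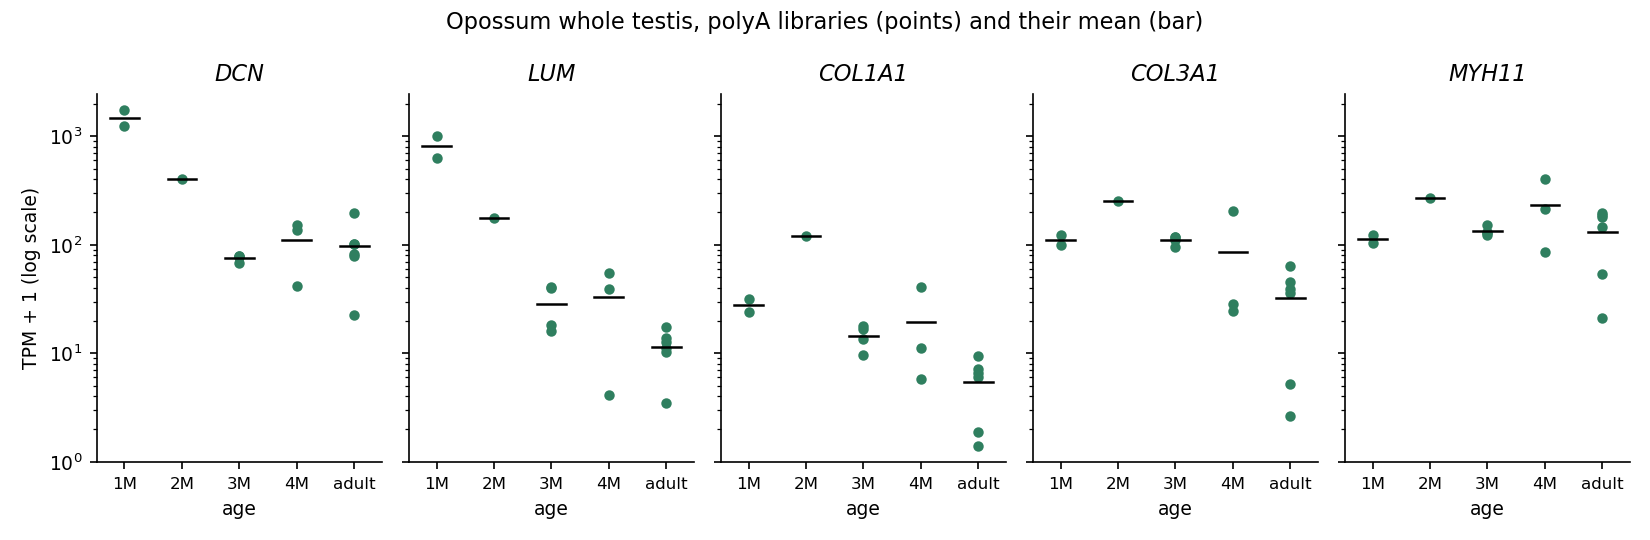
TPM plus 1 (log axis) of DCN, LUM, COL1A1, COL3A1 and MYH11 in polyA bulk libraries of opossum testis at 1, 2, 3 and 4 months and in adults, with 1 point per library and a bar at the mean. DCN falls from 1738 and 1239 TPM at 1 month to between 21.4 and 197 TPM in adults, and MYH11 lies between 20.4 and 400 TPM at all ages.

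Of the 50 opossum features with the highest ratio of members over other barcodes, 17 had no name and 45 could be tested. In bulk 1 was called higher and 16 lower in adults, beside 28.9% and 15.4% of all genes, with a median of -0.97 (5 and 15 with a pseudocount of 0.1). RARRES2 was at 3352 and 3691 TPM at 1 month and a lowest, median and highest value of 36.7, 61.8 and 194 TPM in the adults (limma log2 difference -5.62 ± 0.64, adjusted p = 6.7e-06). CDH11, a cadherin of mesenchymal cells, was at 376 and 343 TPM at 1 month and a lowest, median and highest value of 1.54, 11.2 and 13.6 TPM in the adults (limma log2 difference -5.22 ± 0.65, adjusted p = 1.6e-05), and HTRA3, a secreted protease, at 839.6 and 636 TPM at 1 month and a lowest, median and highest value of 2.5003, 28.7 and 66.2 TPM in the adults (limma log2 difference -4.88 ± 0.87, adjusted p = 0.00036). These were the largest decreases, and both 1-month libraries lay above all adults. SOST, called higher, was at 0.195 and 0 TPM at 1 month and a lowest, median and highest value of 2.61, 5.97 and 12.5 TPM in the adults (limma log2 difference 2.64 ± 0.78, adjusted p = 0.013), and it lost its call without 1-month library 1 (2.76) or 2 (2.51).

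Contractile genes were called in both directions, and every called matrix gene was lower in adults, beside 28.9% of all genes called higher and 15.4% lower. Of 20 contractile genes tested, CNN1 and DES were called higher and TAGLN, TPM4, CALD1, PDLIM3 and ITGA8 lower in adults, with a median of 0.21 (2 higher and 7 lower with the deposited FPKM, and 4 and 4 with a pseudocount of 0.1). CNN1 was at 0.573 and 0.703 TPM at 1 month and a lowest, median and highest value of 3.23, 21.6 and 24.6 TPM in the adults (limma log2 difference 3.16 ± 0.65, adjusted p = 0.0011). DES was at 0.381 and 0.431 TPM at 1 month and a lowest, median and highest value of 4.54, 10.2 and 13.6 TPM in the adults (limma log2 difference 2.92 ± 0.47, adjusted p = 0.00015). TPM4, a tropomyosin found also outside muscle, was at 914 and 863 TPM at 1 month and a lowest, median and highest value of 12.8, 51.2 and 86.1 TPM in the adults (limma log2 difference -4.37 ± 0.65, adjusted p = 7.4e-05). TAGLN was at 213 and 177 TPM at 1 month and a lowest, median and highest value of 4.22, 41.7 and 56.5 TPM in the adults (limma log2 difference -2.80 ± 0.94, adjusted p = 0.024) and lost its call without 1-month library 1 (-2.67) or 2 (-2.94). Of 23 matrix genes, 11 were called lower, with a median of -1.72, among them POSTN at 891 and 794 TPM at 1 month and a lowest, median and highest value of 3.01, 16.5 and 28.1 TPM in the adults (limma log2 difference -6.09 ± 0.65, adjusted p = 3.7e-06) and SPARC at 6425 and 5204 TPM at 1 month and a lowest, median and highest value of 631, 1427 and 2421 TPM in the adults (limma log2 difference -2.13 ± 0.48, adjusted p = 0.0022).

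Niche genes also changed with age. Of 19 niche genes 3 were called higher (FGF10, WNT5A and VEGFA) and 8 lower, beside 28.9% and 15.4% of all genes. GDNF was at 4.5964 and 3.55 TPM at 1 month and a lowest, median and highest value of 0, 0.269 and 0.494 TPM in the adults (limma log2 difference -1.99 ± 0.26, adjusted p = 2.2e-05). VEGFA was at 12.4 and 7.79 TPM at 1 month and a lowest, median and highest value of 26.0, 126 and 166 TPM in the adults (limma log2 difference 2.92 ± 0.69, adjusted p = 0.0031), and lost its call without 1-month library 2 (2.62). GDNF was lower in every adult than at 1 month. Of 12 germ cell markers 10 were called higher, beside 28.9% of all genes.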

How the data were processed

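The labels describe 10x 3′ single-cell libraries and bulk libraries of testis. The authors deposited estimated counts per gene and barcode, of which 2.63 to 6.92% of entries are whole numbers; the step that made them is not given in the sources used here. The authors deposited TPM and FPKM for bulk libraries. Per the submitters' processing notes, Cell Ranger 6.0.1, HISAT2 2.2.1, SAMtools 1.12, StringTie 2.1.4 and GRCm39 were used, with no role stated.

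Members and gene lists were chosen with earlier results of these data known. Counts were summed per library and kind, rounded, and tested with edgeR 4.0.16 (TMM, low-count filter, quasi-likelihood test) over 10751 symbol-matched genes less the marker genes. Bulk TPM were tested with limma 3.58.1 as log2(TPM + 1), all ages in 1 fit, without the rRNA-depleted libraries. A count is present at 0.5 or more. Doublets were not removed; removing the 8% highest Scrublet scores (Scanpy 1.11.5) was an alternative. Other alternatives were DESeq2 1.42.0, other scaling and filters, other marker thresholds, a replicate block, and each library left out. On simulated data with a log2 change of 2 in 200 genes, the tests recovered 88% (all members), 84.5% (fibroblast-like), 80.5% (muscle-rich), 29% (interaction, muscle-rich) and 32% (bulk). The simulated single-cell sums had a fixed dispersion not estimated from these data, no library effect and far fewer changed genes than the species tests called. These recovery rates therefore may not hold for the real sums.

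Genes were named by size: the largest called differences without overlap at 50 CPM or more in the higher and 5 CPM in the lower species, the largest interactions at 50 CPM or more in 1 group and 1 CPM in all, the most abundant members of each list, and the highest ratios. Genes outside this rule were chosen after their values were seen. Some genes are not reported here.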

Additional observations from a re-analysis of the deposited data

Results flagged for a closer look

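DCN in 3-month bulk testis had 1 library far from the others, at 67.0 TPM, where the other 3 libraries lay between 76.7 and 77.4 TPM. This was the only one of 14 groups tested in which 1 library stood apart, and chance does so in about 5% of such groups.

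The step from fibroblast-like to muscle-rich members differed between species by edgeR's interaction test for 10 genes named by size. The log2 interaction was 8.32 for PENK, 8.15 for ENTPD2, 7.87 for SLIT2, 6.07 for ADAP1 and 5.18 for DUSP22. There the signed log2 step to muscle was higher in opossum. The interaction was -8.54 for FIBIN, -7.17 for TMEFF2, -6.92 for DPYD, -6.43 for VEGFC and -5.89 for FAM89A, where the signed step was lower in opossum. ADAP1 lost its call without mouse library 1 (7.30), 2 (5.81) or 3 (5.65), and the other 9 kept theirs in every fit that left out 1 library.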

How the results depend on the processing

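The species difference in the share of members (13.1 percentage points) kept its direction under every alternative tried and ranged from 12.1 to 15.0 with 1 library left out. Over all alternatives it was smallest, 5.71, with each barcode thinned to 1000 counts and largest, 16.4, at a summed marker count of 2.5 or more. At 5 or more it was 8.95, and with only muscle-rich members kept as muscle-like 9.12. The difference in the muscle-like share ranged from -1.50 to 32.4 with 1 library left out and was -2.44 with only muscle-rich members kept as muscle-like and 35.2 with only the marker genes both species name.

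Of the counts of called genes, the fibroblast-like count fell from 3540 of 6504 tested to 2139 of 3596 among barcodes with at least 2000 counts, and the muscle-like count to 245 with only the marker genes both species name, where 1 mouse library remained and 17.96% of calls were higher in opossum. Left-out libraries gave 1513 to 3378 muscle-like calls and 35 to 585 interaction calls. The interaction count of 135 became 241 with DESeq2, 396 without a low-count filter, 359 with muscle-rich members (369 with DESeq2, and 157 without mouse library 1, the fewest with 1 library left out) and 3 with the marker genes both species name, again with 1 mouse library. Leaving out bulk libraries gave 5027 to 9914 calls, the fewest without a 1-month library.

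The correlations of same-numbered libraries were 0.107, -0.078 and 0.015 over all members and 0.153, -0.0135 and 0.164 over fibroblast-like ones, where 1 and 2 of 3 numbers correlated best with their own, so the numbers were not taken to pair them. The replicate block gave 3806 calls in all members, 3497 in fibroblast-like and 2113 in muscle-like members, and 129 interaction calls without the library block. In bulk, where pairing was not checked, the replicate block gave 4336 calls, 54.8% of them higher in adults against 65.2% without it. Under it the calls of FGF10, WNT5A, VEGFA, SOST and CNN1 as higher in adults, and of TAGLN and ITGA8 as lower, were lost.

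The share of muscle-rich calls higher in opossum was 49.7%, 56.3% with DESeq2, 48.8% without mouse library 2 and 56.7 to 63.2% without any other 1 library, the highest without mouse library 1. For the interaction it went from 42.2 to 58.9% without mouse library 3 and 29.8% without opossum library 2, and with muscle-rich members from 40.4 to 54.8% and 60.1% without mouse libraries 1 and 3.

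Signs turned for RIMS1 in the interaction (-2.54, with 1 mouse library) and TAGLN in fibroblast-like members (-3.35) with the marker genes both species name, for MAF in the interaction with all muscle-like members (0.20), and for MYH11 in bulk without adult library 1 (0.29) or 3 (0.02), where libraries left out gave -0.35 to 0.29. With those marker genes, among others ACTN1, ITGA8, HHIP and SPARC lost their fibroblast-like calls. The cause of these changes was not tested.

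Among the muscle-rich sums that of mouse library 2 was the shallowest, with 33182 counts. The other muscle-like members of that library, 4 barcodes, held 25037 counts. GDNF, at 0 to 19.4 CPM in the mouse sums, is near the limit of detection there. Unnamed opossum features, ACTA2 and CSF1 among the genes without a named match, were not analysed between species.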
